A study of Homo sapiens with 4 samples.

Results

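The genes described here handle iron inside the cell. They are 10 genes: CYBRD1, TFRC, SLC11A2, STEAP3, FTH1, FTL, SLC40A1, ACO1, IREB2 and HMOX1, out of 26255 gene symbols measured in each library. They were picked by symbol, and the set was put together with the difference between miRs and control libraries already known, so their levels in that comparison are given as a description without a test. All 10 had a row in the files and all 10 had a mean of at least 1 FPKM (fragments per kilobase of transcript, set against the library's total), the minimum for the fit across genes, which 11860 genes reached. No member rested on the miRs libraries alone for this, since the control mean of each was above 1 FPKM.

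RNA was measured in MRC5, a cell line grown from human fetal lung fibroblasts and labelled wild type, in 2 libraries treated with miRs (microRNAs) and 2 control libraries whose treatment label is "no". All 4 carry 48 h in their titles. The labels do not name the microRNAs, and the series title mentions a negative-control microRNA, so whether the control cells received one cannot be told from the labels. Nothing says that the replicates were separate cultures, so the spread between libraries may be technical.

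Iron enters most cells bound to transferrin, is released and reduced in endosomes, and is then used, stored in ferritin or exported by ferroportin. A pair of RNA-binding iron regulatory proteins, encoded by ACO1 and IREB2, tunes this supply when iron is scarce. They hold back translation of ferritin and ferroportin by binding a hairpin, the iron-responsive element, near the start of those messages, and they protect the transferrin receptor message by binding such hairpins in its tail. Messenger RNA levels therefore report on part of this system only, since ferritin is set largely at translation.

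The hairpins are shown to give their place in 4 of the 10 members. These messages were already known to carry them, so finding them is a description and no support for the choice of genes. In GENCODE 29 transcripts, a search on the transcribed strand for a C, 5 bases, CAGTGN and 5 bases that pair fully with the first 5 (G with U allowed) found 1 site in the 5′ untranslated region of FTH1, FTL and SLC40A1 and 4 sites in the 3′ untranslated region of TFRC. Of 19488 protein-coding genes, 0.159% held such a site in a 5′ region and 0.657% in a 3′ region. Capitals mark the unpaired C and the loop, each sequence is 29 bases read 5′ to 3′, and the place counts from the first base of the untranslated region.
FTH1, 5′ region, bases 59 to 87: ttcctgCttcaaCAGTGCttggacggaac
FTL, 5′ region, bases 35 to 63: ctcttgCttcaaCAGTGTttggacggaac
SLC40A1, 5′ region, bases 199 to 227: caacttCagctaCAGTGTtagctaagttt
TFRC, 3′ region, bases 935 to 963: aattatCggaagCAGTGCcttccataatt
TFRC, 3′ region, bases 1339 to 1367: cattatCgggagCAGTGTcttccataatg
TFRC, 3′ region, bases 1404 to 1432: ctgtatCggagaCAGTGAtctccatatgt
TFRC, 3′ region, bases 1451 to 1479: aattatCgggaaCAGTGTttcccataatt
The ferritin pair carried the same bases in the stem next to the loop, while the TFRC sites had stems of their own, and all 7 sites share the loop letters CAGTG that the search required. In the other 6 members, SLC11A2 among them, the search gave no match in either region. The search accepts only a stem of 5 full pairs, so an element with an imperfect stem would be missed. The lack of a match therefore does not show that these messages have no iron-responsive element.

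The libraries were close in scale but the miRs pair was not uniform. The number of reads is unknown. The worth of 1 fragment was read from the most common ratio to control replicate 1 among genes above 0 and under 0.3 FPKM in both libraries. It was 0.898 in miRs replicate 1, 1.02 in miRs replicate 2 and 1.05 in control replicate 2, relative to control replicate 1. A gap of over 2-fold separated the miRs libraries at 725 tested genes and the controls at 71. The 20 interferon response genes of the context list summed to 11820 and 2303 FPKM in the miRs pair, against 113 and 135 FPKM in the controls. All 10 fibroblast markers were at 18.9 FPKM or more in every library, but 5 of them (DCN, LUM, THY1, FN1 and VIM) lay below both controls in both miRs libraries and 1 (S100A4) lay above. Among all tested genes 30.0% lay below and 29.5% above in this way. The median log2 difference of the fibroblast list was −0.62, with −1.50 for DCN, −1.32 for LUM and −1.02 for THY1. Of the 10, limma called none, and 6 had an unadjusted p under 0.05, against 24.2% of all tested genes. By contrast 11 of 12 macrophage and blood markers, PTPRC and CD163 among them, and 6 of 7 endothelial markers stayed below 1 FPKM in every library. CD68 was the exception in the macrophage list, with 130.2 and 41.9 FPKM in miRs and 53.8 and 57.6 FPKM in control. In the endothelial list it was TEK, with 13.7 and 5.51 FPKM in miRs and 13.5 and 11.0 FPKM in control. Of the 10 epithelial markers 5 were tested (KRT8, KRT18, KRT19, CLDN7 and CLDN4). All 5 had both miRs libraries above both controls, as did 29.5% of all tested genes. CLDN7 and CLDN4 had control means of 0.785 and 0.639 FPKM and reached the minimum only through the miRs libraries. Nothing is read from their place above the controls. Of the 5, limma called 2 (KRT18 and KRT19, adjusted p = 0.0354 each), where it called 0.245% of all tested genes. Another 4 (CDH1, SFTPC, KRT5 and TP63) stayed below 1 FPKM in every library. EPCAM, not tested, was at 1.07 and 1.61 FPKM in miRs and 0 and 0.228 FPKM in control. The list sum was 198 and 267 FPKM in miRs and 29.9 and 32.1 FPKM in control. The part of the shift in fibroblast, epithelial or interferon genes in the results below was not tested.

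The members split into a gene that was low in both miRs libraries (CYBRD1), a gene that was high in both (IREB2), and 8 others in which miRs replicate 1 was the lowest library. In those 8, miRs replicate 2 ranged from well below the controls (ACO1) to above them (FTL). In FPKM, which corrects for length, the control means ran from FTL through FTH1, ACO1, TFRC, CYBRD1, STEAP3, HMOX1, SLC11A2 and IREB2 down to SLC40A1. STEAP3 and HMOX1 were neighbours in that order whose control libraries overlapped, and no other neighbouring pair did. In the miRs means CYBRD1 stood at place 9 of 10, against place 5 in control. Both miRs libraries lay below both controls in 4 members (CYBRD1, TFRC, ACO1 and HMOX1) and above both in 1 (IREB2). Among all tested genes 30.0% lay wholly below and 29.5% wholly above in the same way, and since the comparison itself chose the members nothing is read from these counts.

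**Figure D1:**
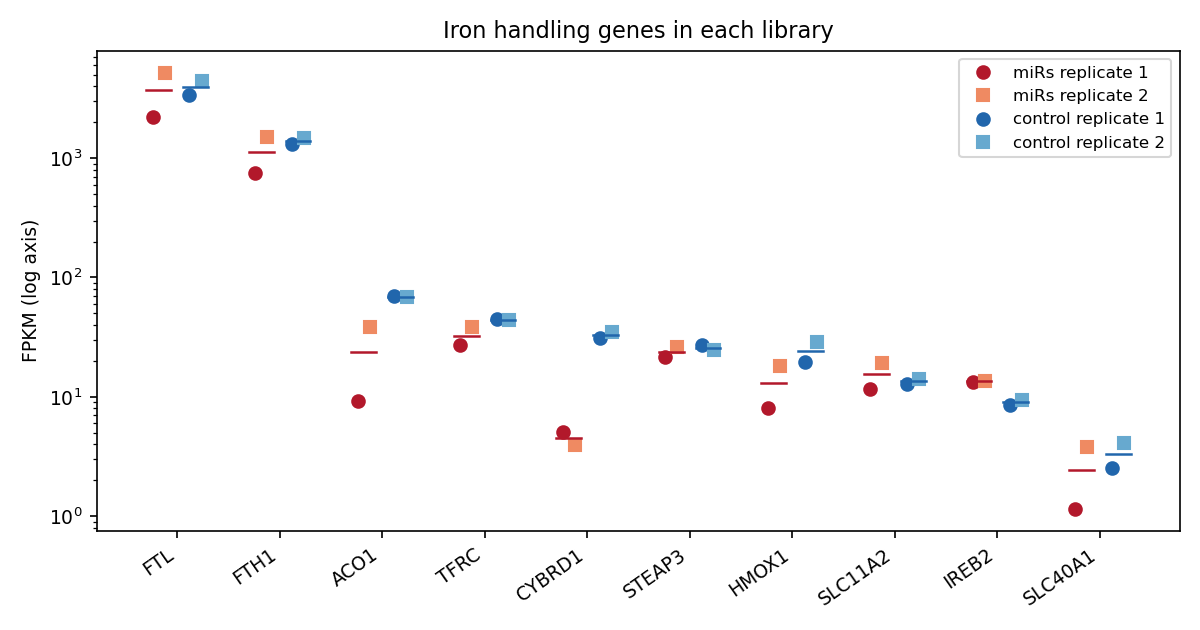
Level of each member in FPKM (log axis) in the 4 libraries, ordered by control mean; points are libraries and short lines are group means. CYBRD1 is far lower in both miRs libraries (5.02 and 3.95 FPKM) than in both controls (31.0 and 34.7 FPKM), while FTL and FTH1 are at 745 FPKM or more everywhere.

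One step of iron uptake is the reduction of ferric iron. CYBRD1 encodes a membrane ferric reductase, known from the duodenal brush border as DCYTB, that uses ascorbate as electron donor. It was at 5.02 and 3.95 FPKM in miRs, against 31.0 and 34.7 FPKM in control. The groups lay far apart, and within each group the libraries were close together. CYBRD1 averaged 4.48 ± 0.760 FPKM in miRs and 32.9 ± 2.63 FPKM in control (SD, n = 2 each), 7.33-fold lower, or a log2(FPKM + 1) difference of −2.63 ± 0.16 (SE). Each SE given here is limma's moderated one, which draws a gene's variance towards a trend over all genes. A member with unequal libraries can therefore have a smaller SE than its own values would give. CYBRD1 stood at place 17 from the lowest among the 11860 tested genes, and it was the member with the most negative difference.

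A microRNA seed match recurs in the 3′ untranslated region of CYBRD1. The labels leave the microRNAs unnamed, so matches to the seed (bases 2 to 8) of the miR-302 and miR-372 group and of the miR-200 family, chosen with earlier results of these data known, were counted in the longest 3′ region of each gene in GENCODE 29. The mature microRNAs, from RefSeq on GRCh38.p14, are shown with the seed in capitals to make the pairing readable.
hsa-miR-302a-3p: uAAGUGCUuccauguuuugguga
hsa-miR-372-3p: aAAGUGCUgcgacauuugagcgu
hsa-miR-200c-3p: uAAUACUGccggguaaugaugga
hsa-miR-141-3p: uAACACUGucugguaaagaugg
The match AGCACTT to the seed of miR-302a and miR-372 occurred 4 times in the 3306 bases of CYBRD1. The 4 sites are printed 5′ to 3′ on the transcribed strand with 8 bases on either side and the match in capitals.
CYBRD1, bases 784 to 806: cctcagagAGCACTTttccccaa
CYBRD1, bases 831 to 853: actcacacAGCACTTactatgct
CYBRD1, bases 861 to 883: ctcctctaAGCACTTtacacata
CYBRD1, bases 2734 to 2756: ccctctaaAGCACTTtctttcct
At least 1 such match was found in 21.4% of 18964 genes, and at least 4 in 0.696% of them. Among the 2915 genes whose 3′ region was as long as that of CYBRD1 or longer, 4.32% had at least 4. SLC40A1 had 2 of these matches in 1299 bases, as 5.94% of genes have 2 or more, and its miRs libraries did not lie together. The other 8 members had no AGCACTT.

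The match CAGTATT to miR-200b, miR-200c and miR-429 was present once each in ACO1 and HMOX1 (16.1% of genes have it). The match CAGTGTT to miR-141 and miR-200a was present once each in TFRC, SLC11A2 and ACO1 and at 2 places in IREB2. At least 1 such match was found in 18.3% of genes, and at least 2 in 4.16% of them. In TFRC the match overlaps the last of the iron-responsive elements printed above, whose loop begins with the same letters. A match of 7 letters describes the sequence and does not show that a microRNA bound there. Of the members with CAGTGTT, IREB2 (2 matches) had both miRs libraries above both controls. SLC11A2 (1 match) had a higher miRs mean but overlapping groups. TFRC and ACO1 (1 match each) had both miRs libraries below both controls, as did HMOX1, which has a CAGTATT as ACO1 does. Any part of these matches in the levels was not tested.

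The genes closest to CYBRD1 in profile, by Euclidean distance of log2(FPKM + 1) centred on each gene's mean over the 4 libraries, were PLSCR3 (distance 0.106), SYT11 (0.160), RAB32 (0.264), SYDE1 (0.408) and RNASE4 (0.478). PLSCR3, the nearest, was at 7.81 and 6.09 FPKM in miRs, against 48.4 and 54.9 FPKM in control. SYDE1 and RNASE4 had 1 AGCACTT each in the longest 3′ region, and PLSCR3, SYT11 and RAB32 had none.

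The other uptake genes differed less. TFRC encodes the transferrin receptor, which carries transferrin-bound iron into endosomes. It was at 27.0 and 38.2 FPKM in miRs, against 44.6 and 43.6 FPKM in control. Both miRs libraries lay below both controls, miRs replicate 2 only slightly so. TFRC averaged 32.6 ± 7.98 FPKM in miRs and 44.1 ± 0.706 FPKM in control (SD, n = 2 each), with a log2 difference of −0.45 ± 0.20 (SE), which was −0.20 with miRs replicate 1 left out and −0.69 with miRs replicate 2 left out. Its nearest genes in profile were THBS3, SRF, TRAF7, LRRC49 and EHD2, at distances from 0.0163 to 0.0324 over the 4 libraries.

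STEAP3, the endosomal reductase that works with TFRC, was at 21.4 and 25.9 FPKM in miRs, against 27.1 and 24.5 FPKM in control, and the groups overlapped (log2 difference −0.12 ± 0.15, SE). SLC11A2, also called DMT1, moves ferrous iron across the endosomal and plasma membranes. It was at 11.7 and 19.1 FPKM in miRs, against 12.9 and 14.1 FPKM in control. The 2 miRs libraries lay on either side of the controls, and the log2 difference was 0.14 ± 0.25 (SE), turning to −0.19 without miRs replicate 2.

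Ferritin stores iron in a shell built from heavy chains (FTH1), which oxidise iron, and light chains (FTL), which help to form the mineral core. FTH1 was at 745 and 1501 FPKM in miRs, against 1313 and 1482 FPKM in control. FTL was at 2208 and 5221 FPKM in miRs, against 3400.4 and 4459.9 FPKM in control. In both genes miRs replicate 1 was the lowest library and miRs replicate 2 the highest, so the miRs libraries enclosed the controls. The log2 differences were −0.40 ± 0.36 for FTH1 and −0.20 ± 0.45 for FTL (SE), turning to 0.11 and 0.42 without miRs replicate 1, and the difference for FTL was 0.03 with quantile normalization.

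The sum of the chains differed more between the miRs libraries than their ratio did. FTH1 and FTL together summed to 2953 and 6722 FPKM in miRs and 4714 and 5941 FPKM in control. FTL over FTH1 was 2.96 and 3.48 in miRs and 2.59 and 3.01 in control. Ferritin genes have many processed pseudogenes, so their levels depend on how shared reads were assigned. The 3 ferritin pseudogene symbols listed (FTH1P18, FTH1P3 and FTLP10) were at 0 in all 4 libraries.

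SLC40A1 encodes ferroportin, the exporter of iron from cells. It was the lowest member, at 1.15 and 3.77 FPKM in miRs and 2.55 and 4.13 FPKM in control. The groups overlapped, and miRs replicate 2 lay between the controls. The log2 difference was −0.42 ± 0.44 (SE), and it turned to 0.16 without miRs replicate 1.

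The genes of the iron regulatory proteins differed from control in opposite directions. ACO1 encodes IRP1, which acts as a cytosolic aconitase when it holds an iron-sulfur cluster and binds iron-responsive elements when it does not. It was at 9.18 and 38.7 FPKM in miRs, against 69.6 and 68.3 FPKM in control. The controls were nearly equal and both miRs libraries were lower, but to very different degrees. Relative to the control mean, miRs replicate 1 held 13.3% of the ACO1 level and miRs replicate 2 held 56.1%. It averaged 23.9 ± 20.9 FPKM in miRs and 68.9 ± 0.888 FPKM in control (SD, n = 2 each), with a log2 difference of −1.80 ± 0.66 (SE), which became −2.78 with miRs replicate 2 left out and −0.82 with miRs replicate 1 left out.

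IREB2 encodes IRP2, which has no aconitase activity and is removed by the proteasome when iron is plentiful. It was at 13.3 and 13.6 FPKM in miRs, against 8.58 and 9.36 FPKM in control. The groups lay apart and the miRs libraries nearly coincided. IREB2 averaged 13.5 ± 0.247 FPKM in miRs and 8.97 ± 0.553 FPKM in control (SD, n = 2 each), 1.501-fold higher, with a log2 difference of 0.54 ± 0.13 (SE). Per length, ACO1 exceeded IREB2 in both controls by 8.11-fold and 7.30-fold. In the miRs libraries the ratio of ACO1 to IREB2 was 0.691 in replicate 1, where IREB2 was the more abundant message, and 2.84 in replicate 2.

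**Figure D2:**
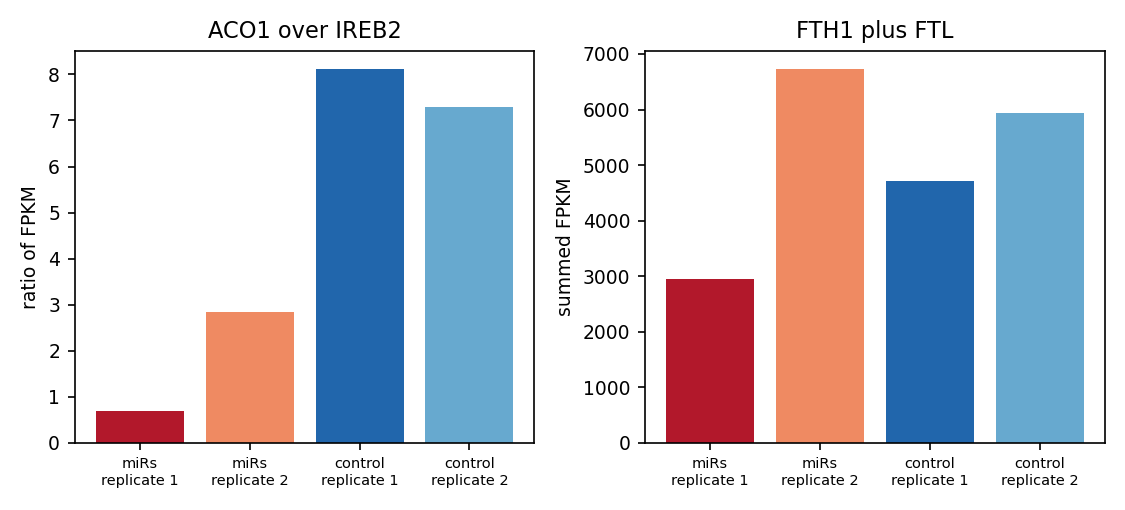
Left, FPKM of ACO1 divided by that of IREB2, and right, summed FPKM of FTH1 and FTL, in each library; bars start at 0 and stand for single libraries. The ratio is 0.691 and 2.84 in the miRs libraries and 8.11 and 7.30 in the controls, while the ferritin sum is lowest in miRs replicate 1 and highest in miRs replicate 2.

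HMOX1 encodes the inducible haem oxygenase, which opens haem and frees its iron. It was at 8.08 and 18.03 FPKM in miRs, against 19.7 and 29.02 FPKM in control. Both miRs libraries lay below both controls, though miRs replicate 2 and control replicate 1 were close. HMOX1 averaged 13.1 ± 7.03 FPKM in miRs and 24.4 ± 6.59 FPKM in control (SD, n = 2 each), with a log2 difference of −0.92 ± 0.41 (SE). Leaving out miRs replicate 2 gave −1.46, and leaving out miRs replicate 1 gave −0.39. Its nearest genes in profile were OLFML2A, CTIF, GUCY1B3, PELI2 and PIK3CD-AS2, at distances from 0.141 to 0.154 over the 4 libraries.

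The gap between the 2 miRs libraries uses the same values with which the members were chosen, so it is given as a description, with no test and nothing read from the shares beside it. Of the 10 members, 9 were lower in miRs replicate 1 than in miRs replicate 2, as were 48.8% of the tested genes. On the log2(FPKM + 1) scale 5 members (ACO1, FTL, SLC40A1, HMOX1 and FTH1) were over 2-fold lower in miRs replicate 1, as were 2.66% of the tested genes. The median gap was −0.84 over the members and 0.01 over all tested genes. Between the controls the same scale gave gaps from −0.54 for HMOX1 to 0.14 for STEAP3.

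ACO1 had the widest gap of the members, 4.21-fold in FPKM and −1.96 on the log2(FPKM + 1) scale, where 26 of the tested genes had a more negative one. CYBRD1 was the member that ran the other way, with 5.02 FPKM in miRs replicate 1 and 3.95 FPKM in miRs replicate 2. The interferon context genes were also unequal between these libraries, in the opposite direction, their median log2 difference from the control mean being 6.69 in miRs replicate 1 against 4.25 in the other miRs library. Of the 10 fibroblast markers 7 were lower in miRs replicate 1 than in miRs replicate 2, and 3 (VIM, THY1 and FN1) were higher. The part of the interferon response or of the fibroblast markers in the gap was not tested.

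**Figure D3:**
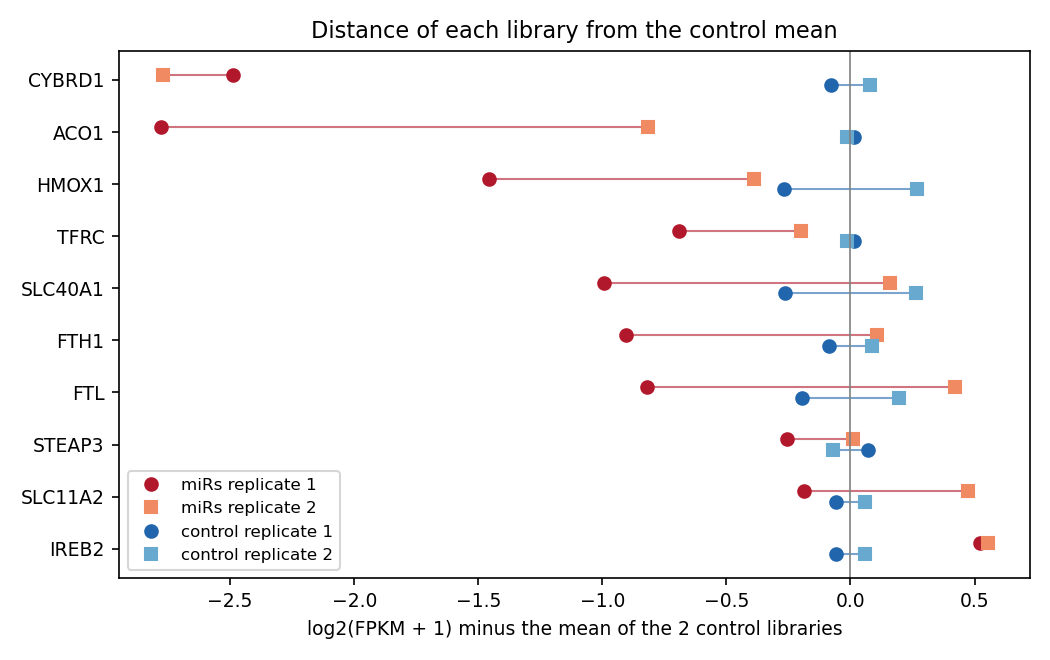
Each member's log2(FPKM + 1) in each library minus the mean of the control libraries; points are libraries and lines join the libraries of a group. CYBRD1 and IREB2 have miRs libraries close together at −2.49 and −2.77 and at 0.52 and 0.56, whereas ACO1 spans −2.78 to −0.82.

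The wider iron network was described with 6 lists, which hold 118 genes besides the members, 97 of them tested with limma over all genes. None of the 97 passed an adjusted p of 0.05 in limma, where 0.245% of all tested genes did (29 genes), and 26 of the 97 (26.8%) had an unadjusted p under 0.05, against 24.2% of all tested genes. In 31 genes (32.0%) both miRs libraries lay above both controls and in 29 (29.9%) below, against 29.5% and 30.0% of all tested genes, so these shares were near those of all genes. Among the 31, CP, FLVCR2 and ABCG2 reached the minimum only through the miRs libraries, as given with their lists. The shares of 29.5% above and 30.0% below are also the background for the counts of each list that follows. The median log2 difference was 0.09, against −0.0020 over all tested genes. Genes below are given by values, since none was called, and each list shows its 4 largest differences among genes whose groups did not overlap.

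The count of 0 rests on both miRs libraries being in the fit. Leaving out either miRs library raised the count for the wider iron genes, and raised that for all tested genes as well. Those fits assume that the lone miRs library varies like the controls, so nothing is read from their counts. The smallest adjusted p among the 97 with all libraries was 0.0863, for FBXW7 and ISCA1.

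**Figure D4:**
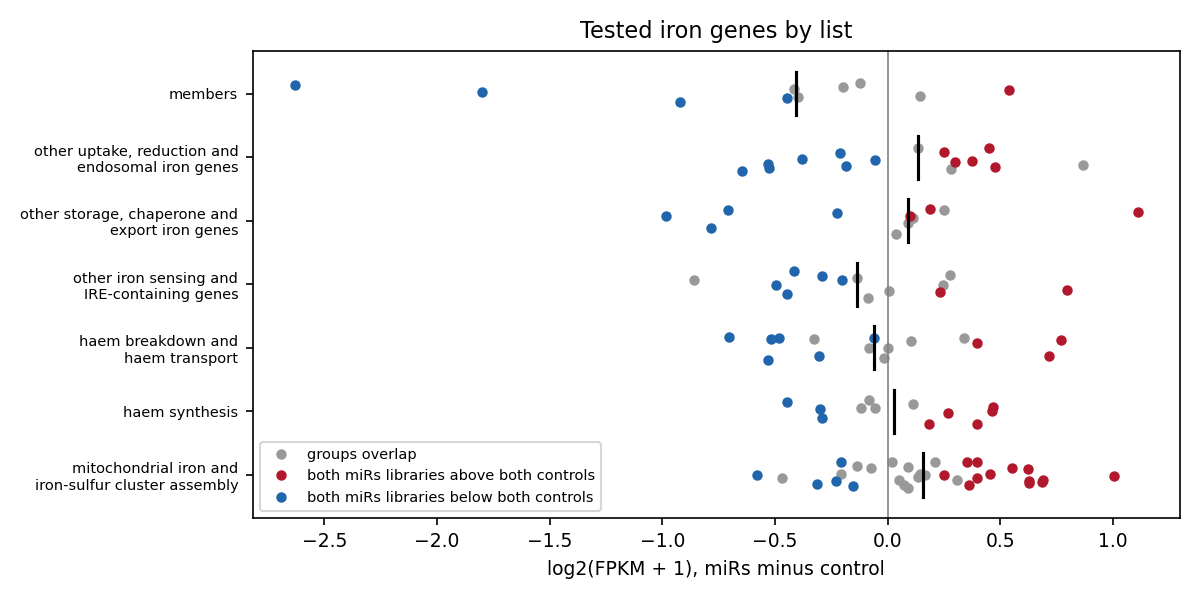
Difference in log2(FPKM + 1), miRs minus control, of each tested gene in the member set and in the 6 wider lists; each point is a gene, coloured by whether the groups overlap, and the black line is the list median. CYBRD1 at −2.63 and ACO1 at −1.80 lie farther from 0 than any gene of the wider lists, whose medians run from −0.14 to 0.15.

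Among other genes of uptake, reduction and endosomal traffic, 15 of 24 were tested, 0 were called, and 5 lay above and 7 below without overlap. SLC22A17, a receptor for the siderophore-binding protein lipocalin 2, was at 7.53 and 9.23 FPKM in miRs and 13.4 and 13.9 FPKM in control. LRP1, a scavenger receptor that also takes up haem with haemopexin, was at 69.1 and 114 FPKM in miRs and 119.6 and 138 FPKM in control. EXOC6, a subunit of the exocyst, was at 2.96 FPKM in both miRs libraries and 5.12 and 4.32 FPKM in control. MCOLN1, a lysosomal cation channel that passes iron, was at 12.03 and 8.67 FPKM in miRs and 7.58 and 6.60 FPKM in control.

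Relatives of the members were looked at for levels and named after their values were seen. The reductase STEAP4 was listed at 0 in all 4 libraries, and TFR2, the second transferrin receptor, did not exceed 0.0652 FPKM. STEAP1 was at 13.9 and 3.26 FPKM in miRs and 4.14 and 2.72 FPKM in control. SLC39A14, also called ZIP14, takes up iron that is not bound to transferrin. It was at 27.7 and 24.7 FPKM in miRs and 20.8 and 17.1 FPKM in control (adjusted p = 0.185 in limma).

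Among other genes of storage, chaperoning and export, 11 of 17 were tested, 0 were called, and 3 lay above and 4 below without overlap. Of the 3 above, CP had a control mean of 0.882 FPKM and reached the minimum only through the miRs libraries. Nothing is read from its place, and CP was named after its values were seen. HEPH, a copper ferroxidase that works with ferroportin, was at 4.83 and 3.88 FPKM in miRs and 7.63 and 7.79 FPKM in control (log2 difference −0.71, adjusted p = 0.0995 in limma). NEO1, neogenin, a receptor that takes part in hepcidin control in liver, was at 15.0 and 16.0 FPKM in miRs and 30.2 and 24.8 FPKM in control (log2 difference −0.78, adjusted p = 0.0912 in limma). Its miRs libraries were alike, as were those of HEPH.

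HFE, the protein altered in hereditary haemochromatosis, was at 4.80 and 1.92 FPKM in miRs and 6.44 and 7.90 FPKM in control. Its partner B2M was at 3715 and 1227 FPKM in miRs and 1007 and 972 FPKM in control. B2M is also a known interferon-induced gene, and its 2 miRs libraries stood in the same order as the interferon sums. Hepcidin (HAMP) was listed at 0 in every library. NCOA4, the receptor that delivers ferritin to autophagy, was at 73.4 and 53.4 FPKM in miRs and 54.6 and 50.5 FPKM in control, with overlapping groups. HAMP and NCOA4 were named after their values were seen.

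Among other genes of iron sensing or with known or reported iron-responsive elements, 13 of 15 were tested, 0 were called, and 2 lay above and 5 below without overlap. FBXW7, a substrate receptor of a ubiquitin ligase, was at 6.52 and 7.31 FPKM in miRs and 3.67 and 3.45 FPKM in control (log2 difference 0.79, adjusted p = 0.0863 in limma). HIF1A, the hypoxia factor subunit whose hydroxylation needs iron, was at 72.1 and 58.2 FPKM in miRs and 98.6 and 85.6 FPKM in control. PFN2, a profilin, was at 168 and 138 FPKM in miRs and 212 and 204 FPKM in control. CDC42BPA, a kinase, was at 5.43 and 7.48 FPKM in miRs and 8.47 and 9.22 FPKM in control.

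FBXL5, the iron-sensing ligase subunit that removes IRP2, was at 18.8 and 15.1 FPKM in miRs and 13.0 and 15.2 FPKM in control, and its groups overlapped. EPAS1, the HIF2 alpha gene, whose message has an iron-responsive element in its 5′ region, was at 21.8 and 72.2 FPKM in miRs and 67.4 and 79.2 FPKM in control. Its libraries stood apart in the way those of ACO1 did, with miRs replicate 1 far below the rest, but miRs replicate 2 was within the control range. FBXL5 and EPAS1 were named after their values were seen.

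Among genes of haem breakdown and transport, 15 of 19 were tested, 0 were called, and 3 lay above and 6 below without overlap. BACH1, the haem-binding repressor of HMOX1, was at 21.3 and 17.7 FPKM in miRs and 11.6 and 11.2 FPKM in control (log2 difference 0.72, adjusted p = 0.0950 in limma). HMOX1 itself was lower in both miRs libraries, as given above, and a link with BACH1 was not tested. MAFF, a small MAF protein that pairs with such factors, was at 13.5 and 9.75 FPKM in miRs and 21.8 and 17.2 FPKM in control. ABCG2, a transporter that can export haem, was at 2.21 and 1.38 FPKM in miRs and 0.746 and 0.508 FPKM in control. Of the 3 above, ABCG2 and FLVCR2 had control means of 0.627 and 0.856 FPKM. They reached the minimum only through the miRs libraries, so nothing is read from their place. FLVCR2 was named after its values were seen.

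The activator of HMOX1, NFE2L2, was at 32.1 and 50.02 FPKM in miRs and 54.5 and 58.5 FPKM in control, with a log2 difference of −0.48 (adjusted p = 0.294 in limma). Any part of NFE2L2 in the HMOX1 level was not tested. The constitutive oxygenase HMOX2 was at 55.7 and 35.5 FPKM in miRs and 37.8 and 32.5 FPKM in control. The biliverdin reductase BLVRA, next in the pathway, was at 38.0 and 35.8 FPKM in miRs and 37.9 and 35.7 FPKM in control. NFE2L2, HMOX2 and BLVRA were named after their values were seen.

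Among genes of haem synthesis, 12 of 13 were tested, 0 were called, and 5 lay above and 3 below without overlap. SLC25A38, the mitochondrial glycine carrier, was at 15.9 and 14.2 FPKM in miRs and 10.6 FPKM in both controls. ABCB6, a porphyrin transporter, was at 9.02 and 11.7 FPKM in miRs and 6.77 and 7.63 FPKM in control. ALAD and UROD, enzymes of the pathway, differed in opposite directions. ALAD was at 10.03 and 11.1 FPKM in miRs and 15.2 and 14.3 FPKM in control. UROD was at 68.3 and 94.6 FPKM in miRs and 58.4 and 63.4 FPKM in control.

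In the list for mitochondrial iron and iron-sulfur cluster assembly, all 32 genes were tested, 0 were called, and 13 (40.6%) lay above and 5 (15.6%) below without overlap, against 29.5% and 30.0% of all tested genes; with no test of the list nothing is called particular to it. The list median was 0.15 on the log2 scale, with 0.24 for the first miRs library alone and 0.17 for the other. The mitochondrial iron importers SLC25A37 and SLC25A28, or mitoferrin 1 and 2, were both higher in both miRs libraries. SLC25A28 was at 39.4 and 17.8 FPKM in miRs and 12.8 and 12.7 FPKM in control (log2 difference 1.005, adjusted p = 0.209 in limma). SLC25A37 was at 18.6 and 13.4 FPKM in miRs and 8.44 and 10.5 FPKM in control (log2 difference 0.69, adjusted p = 0.158 in limma).

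The assembly genes ISCA1 and HSPA9 had tight groups. ISCA1, a carrier of clusters for mitochondrial proteins, was at 17.9 and 17.7 FPKM in miRs and 10.6 and 10.8 FPKM in control (log2 difference 0.69, adjusted p = 0.0863 in limma). HSPA9, the mitochondrial chaperone that helps release clusters from their scaffold, was at 109 and 111 FPKM in miRs and 75.3 and 66.1 FPKM in control (log2 difference 0.63, adjusted p = 0.0962 in limma). FAM96B, a subunit that targets clusters to cytosolic and nuclear proteins, was at 63.6 and 63.9 FPKM in miRs and 93.7 and 97.9 FPKM in control (log2 difference −0.58, adjusted p = 0.0940 in limma). FAM96B was named after its values were seen.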

How the data were processed

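The build hg19 and the tools Cuffdiff 2.2.1, TopHat2 2.1.1, SAMtools 0.1.18 and Bowtie2 2.2.8 come from the submitters' processing notes, which give no roles. Per the labels' protocols, libraries were made with a stranded kit for polyadenylated RNA. Each library has a file in which the authors deposited FPKM by gene symbol. Of annotation, strand setting and scaling nothing is stated, and depth is unknown.

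The files were joined on symbol. Those reaching a 4-library mean of 1 FPKM entered a fit of log2(FPKM + 1) by limma 3.58.1 (R 4.3.3), a scale that understates changes of low genes, with a variance trend, 2-sided, and Benjamini-Hochberg adjustment over all tested genes at 0.05. Members and lists were chosen with earlier results of these data known. Members have no p for that reason, and the SE of their log2 differences is the moderated one of this fit. In each wider list the text names genes past the threshold and the 4 largest differences with groups that do not overlap, and other names are marked. Sequence searches used Python 3.11.15 with GENCODE 29 (GRCh38), matched by symbol for all 10 members. As the build differs from hg19, no genome coordinates are given. The planned protein comparison was not made.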

Additional observations from a re-analysis of the deposited data

How the results depend on the processing

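With 2 libraries a group and 2 residual degrees of freedom, the spread is poorly known and low levels such as those of SLC40A1 are imprecise. Of all tested genes 29 were called in limma (2872 at an unadjusted p under 0.05). The count was 0 in limma with no minimum FPKM (3338 at an unadjusted p under 0.05) and 6 with quantile normalization, and 99 with the replicate block. It ran from 0 to 3746 when 1 library was left out. Among the wider iron genes the count of calls ran from 0 to 34 when 1 library was left out and was 0 under the other alternatives, the replicate block included. Deviations of libraries with the same number correlated at 0.20 across genes between groups, which with 2 numbers does not pair them. The cause of these changes was not tested. CYBRD1, TFRC, ACO1, HMOX1 and IREB2 kept the sign of their log2 difference under all 11 alternatives. CYBRD1 ranged from −2.85, with a pseudocount of 0.1, to −2.49, and IREB2 from 0.48 to 0.59. FTH1, FTL, SLC40A1 and STEAP3 changed sign without miRs replicate 1, FTL also with quantile normalization, and SLC11A2 without miRs replicate 2.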
